A study of Mus musculus with 2 samples.

Results

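Gli1, Prrx1, Grem1, Ctsk, Postn, Cd200, Nes, Enpep and Sox9 have each been used to mark or sort skeletal stem and progenitor populations in bone, marrow or periosteum. Their transcripts were counted in single αSMA-labeled periosteal cells, of which the wells with at least 200 detected genes were kept as cells. These 9 genes are 9 of 17938 listed in the deposited UMI tables, where a UMI (unique molecular identifier) stands for 1 captured transcript, and each was listed on both plates. Among 503 cells, Postn, Prrx1, Cd200 and Ctsk were each seen in between 15.7% and 25.8% of cells. Nes was seen in 15 cells, Enpep in 8, Sox9 in 6, and Gli1 and Grem1 in 3 each. Postn was higher in cells with tendon transcripts, and Cd200 was higher in cells with Rgs5, a pericyte transcript, mostly in those that also carried endothelial transcripts.

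Periosteum is the fibrous and cellular layer on the outer surface of bone, and its progenitors form bone and cartilage during fracture healing. No single gene defines these progenitors. The markers come from different reporter mice and antibody combinations, and several are also used by other cell types: Ctsk by osteoclasts, Sox9 by chondrocytes, Nes by vessel-associated cells and Cd200 by endothelial cells. In the αSMACreER line, the smooth muscle actin (Acta2) promoter drives a tamoxifen-dependent Cre, and the Ai9 reporter then keeps a cell and its progeny Tomato positive.

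All cells came from tibia and femur periosteum of female mice that received tamoxifen at 75 mg/kg in 2 doses, and live Tomato+ cells were sorted without antibody staining. The 2-day cells (2 days of chase, age 10.3 weeks) and the 6-week cells (43 days of chase, age 14.4 weeks) were aSMACreER/Ai9/Col2.3GFP, in which a collagen promoter fragment marks osteoblasts with GFP. The 13-week cells (96 days of chase, age 20.1 weeks) were aSMACreER/Ai9/R26-M2rtTA/TetOP-H2B-GFPH2B and had received doxycycline for 5 weeks, which switches on a histone-GFP label. Each time point was 1 small pool of mice, so at 13 weeks the effects of time, strain, age and doxycycline cannot be told apart. Cells from 2 days and 13 weeks were on a common plate, and 6-week cells had a plate of their own. At 6 weeks the effects of time, age and plate therefore cannot be told apart either. The 2-day, 6-week and 13-week pools gave 181, 189 and 133 cells, with 171209, 156763 and 117824 UMIs and medians of 795, 672 and 726 UMIs per cell. The plates reused their well primers, and 137 cell barcodes occurred among the kept cells of both. Acta2 was detected in 107 of 503 cells.

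Cells were grouped by transcripts that are not among the 9 markers. The 105 Rgs5 cells had at least 1 Rgs5 UMI and fewer than 3 UMIs of Thbs4, Fmod and Tnmd together, which encode tendon matrix and membrane proteins. The 174 tendon-gene cells had at least 3 of these UMIs and no Rgs5. The 211 remaining cells, the cells of neither group in the plots, met neither condition, and 13 cells that met both were left out of tests. Just inside the thresholds were 24 Rgs5 cells with exactly 1 Rgs5 UMI and 13 tendon-gene cells with exactly 3 tendon UMIs. Just outside were 37 remaining cells with 2 tendon UMIs and 61 with 1. The Rgs5 cells numbered 32, 41 and 32 at 2 days, 6 weeks and 13 weeks, the tendon-gene cells 67, 64 and 43, and the remaining cells 79, 80 and 52.

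The labels of these groups were compared with marker lists. Leaving out Rgs5, which chose the cells, the other 13 genes of a perivascular list gave 51.6 UMIs per 10000 in Rgs5 cells (range over time points 37.4 to 63.2), 8.70 in tendon-gene cells and 17.2 in remaining cells. Leaving out the 3 grouping genes, the other 8 genes of a tendon or fibrous list gave 107 UMIs per 10000 in tendon-gene cells (100.2 to 114), 8.50 in Rgs5 cells and 11.6 in remaining cells. The Rgs5 cells also carried endothelial transcripts. At least 1 UMI of 12 endothelial genes was present in 58 of the 105 Rgs5 cells, 10 of the 174 tendon-gene cells and 27 of the 211 remaining cells, at levels of 36.6, 0.62 and 4.06 UMIs per 10000. Rgs5 cells are therefore named here by the transcript that chose them and not as pericytes. A Pax7 or Cdh15 UMI, or at least 5 UMIs of 8 skeletal muscle genes, marked 60 of the 211 remaining cells. The skeletal muscle list was at 46.8 UMIs per 10000 in remaining cells, 4.31 in Rgs5 cells and 4.16 in tendon-gene cells.

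The sequences just upstream of Postn and Cd200 are shown because, of the 4 markers with a test, these had the largest differences between cell groups described below. Postn lies at chr3:54361109-54391037 on the plus strand of GRCm38 and Cd200 at chr16:45382135-45409053 on the minus strand (GENCODE M21). Each stretch is the 100 bases before the RefSeq gene start on the GRCm38.p6 assembly, on the strand of the gene, at chr3:54361007-54361106 and chr16:45409054-45409153. Capitals mark a TATAAA in Postn and a GGGCGG in Cd200.
Postn: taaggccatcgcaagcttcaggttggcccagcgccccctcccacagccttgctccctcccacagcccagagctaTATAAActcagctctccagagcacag
Cd200: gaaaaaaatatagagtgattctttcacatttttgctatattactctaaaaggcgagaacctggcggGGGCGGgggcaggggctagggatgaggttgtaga
The TATAAA began at -26 and the GGGCGG at -34 from the gene start. Both motifs were searched on both strands, and they do not overlap each other in either stretch. Of 32851 RefSeq promoter windows of this length, 5.56% held TATAAA and 24.7% held GGGCGG. Promoter windows were matched for 7 of the 9 genes. Enpep also held TATAAA, on the opposite strand at -52, and Nes held GGGCGG on the opposite strand. Prrx1, Grem1 and Ctsk held neither motif in their windows.

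Prrx1, Gli1 and Sox9 are transcription factors. Prrx1, a homeobox factor of limb mesenchyme (chr1:163245119-163313710, minus strand), gave 182 UMIs in 119 of 503 cells (23.7%). It was detected in 29.8% of the 2-day cells (95% Clopper-Pearson interval 23.3 to 37.1), 24.3% of the 6-week cells (18.4 to 31.1) and 14.3% of the 13-week cells (8.83 to 21.4). With each cell thinned to 300 UMIs, so that depth was equal, the shares were 16.0%, 12.1% and 5.56%. The pooled levels were 5.20, 4.08 and 2.46 UMIs per 10000, and the ratio of 13 weeks over 2 days was 0.47 (exact interval 0.30 to 0.73). Prrx1 was therefore lower in the 13-week pool than in the 2-day pool beyond counting error. These intervals cover counting error only, since each time point was a single pool and pools could not be tested against each other.

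Prrx1 was then compared between time points within each cell group. In tendon-gene cells it was 6.50, 5.17 and 3.33 UMIs per 10000 at 2 days, 6 weeks and 13 weeks (13 weeks over 2 days 0.51, interval 0.25 to 0.97), and in remaining cells 4.93, 4.10 and 1.92 (0.39, interval 0.17 to 0.82). In Rgs5 cells it was 2.31, 2.32 and 2.19, from 5, 8 and 6 UMIs, and the ratio of 0.95 had an interval of 0.24 to 3.92. The Rgs5 interval covers the ratios of the other groups, so the groups were not shown to differ in this respect. The make-up of the remaining cells also differed between the 2-day and 13-week pools. Their skeletal muscle list was at 27.1 and 62.8 UMIs per 10000 and their endothelial list at 0.63 and 10.4. A list of 10 fibroblast or progenitor genes was at 261 and 180, and 9 osteoblast genes at 105 and 12.6. Whether this bears on their Prrx1 ratio was not tested. On read counts the ratio over all cells was 0.835 instead of 0.47, so its size depended on collapsing reads by UMI.

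**Figure D1:**
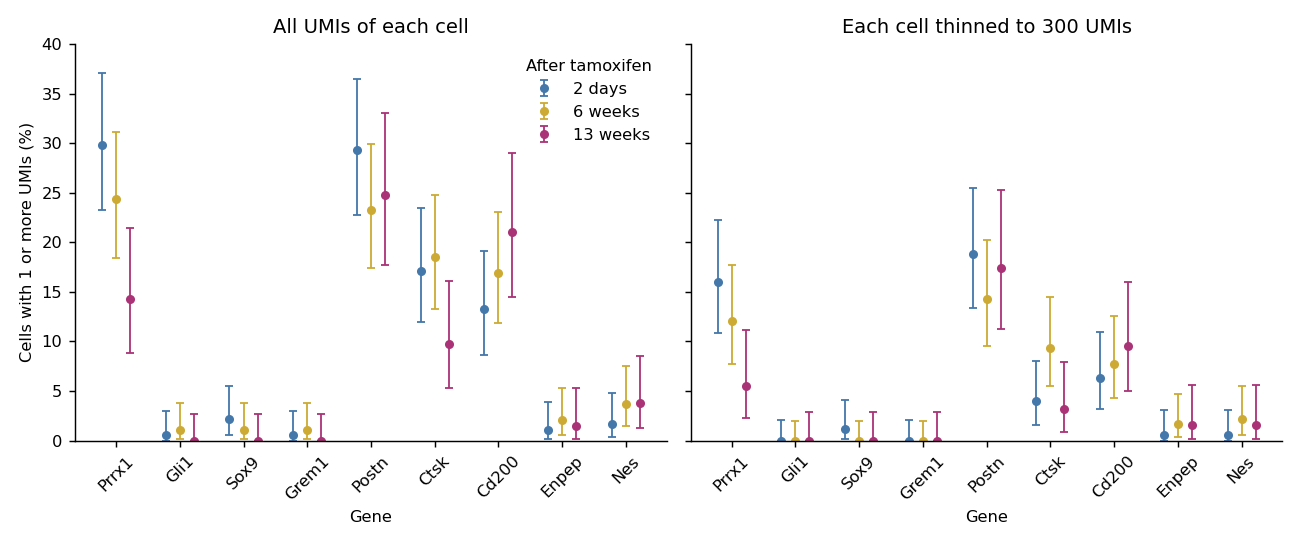
Share of cells with at least 1 UMI of each of the 9 markers (percent, y axis) at 2 days, 6 weeks and 13 weeks, with all UMIs (left) and with each cell thinned to 300 UMIs (right); bars are 95% Clopper-Pearson intervals that cover counting error only. On the left Prrx1, Ctsk, Postn and Cd200 lie between 9.77% and 29.8%, while Nes, Enpep, Sox9, Gli1 and Grem1 stay at or below 3.76% at each time point.

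Gli1, a transcription factor and target of hedgehog signalling (chr10:127329882-127341974, minus strand), gave 3 UMIs in 3 cells. There was 1 UMI at 2 days and 2 at 6 weeks. None of the 133 cells at 13 weeks had one, which allows a share of up to 2.26%. The 2-day UMI was in a tendon-gene cell and the 6-week UMIs were in remaining cells, and 0 of 105 Rgs5 cells allows up to 2.86%. A difference in Gli1 between time points or groups was not detectable at this depth.

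Sox9, a factor required for cartilage formation (chr11:112782224-112787760, plus strand), gave 8 UMIs in 6 cells. It was seen in 4 of 181 cells at 2 days (6 UMIs) and 2 of 189 at 6 weeks (2 UMIs), and in 0 of 133 at 13 weeks, which allows up to 2.26%. Of the 8 UMIs, 7 were in remaining cells, 1 was in a tendon-gene cell and none in Rgs5 cells (limit 2.86%). One of the 6 cells also had a UMI of a list of 10 chondrocyte genes, and 4 of the 8 UMIs were in 2 cells with Pax7 or Cdh15, which mark muscle satellite cells. The interval of the 13-week over 2-day ratio reached up to 1.23, so the absence of Sox9 UMIs at 13 weeks is within counting error.

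Postn and Grem1 are secreted. Postn, or periostin, is a matrix protein of periosteum and other collagen-rich tissue and gave the most UMIs of the 9 genes, 579 in 130 cells (25.8%). It was detected in 29.3%, 23.3% and 24.8% of cells at 2 days, 6 weeks and 13 weeks, at pooled levels of 13.1, 12.6 and 13.4 UMIs per 10000. The thinned shares were 18.9%, 14.3% and 17.5%. The ratios to 2 days were 0.96 at 6 weeks and 1.02 at 13 weeks. Over all cells the Postn level of the 3 pools thus lay within 12.6 to 13.4.

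Postn was unevenly spread over cells. The highest cell, a tendon-gene cell at 6 weeks, held 32 UMIs, and the 10 highest cells held 33.0% of all Postn UMIs. Of 41 cells with at least 5 Postn UMIs, 32 were tendon-gene cells, 9 were remaining cells and none were Rgs5 cells. Cells with a single Postn UMI numbered 53 of the 130.

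**Figure D2:**
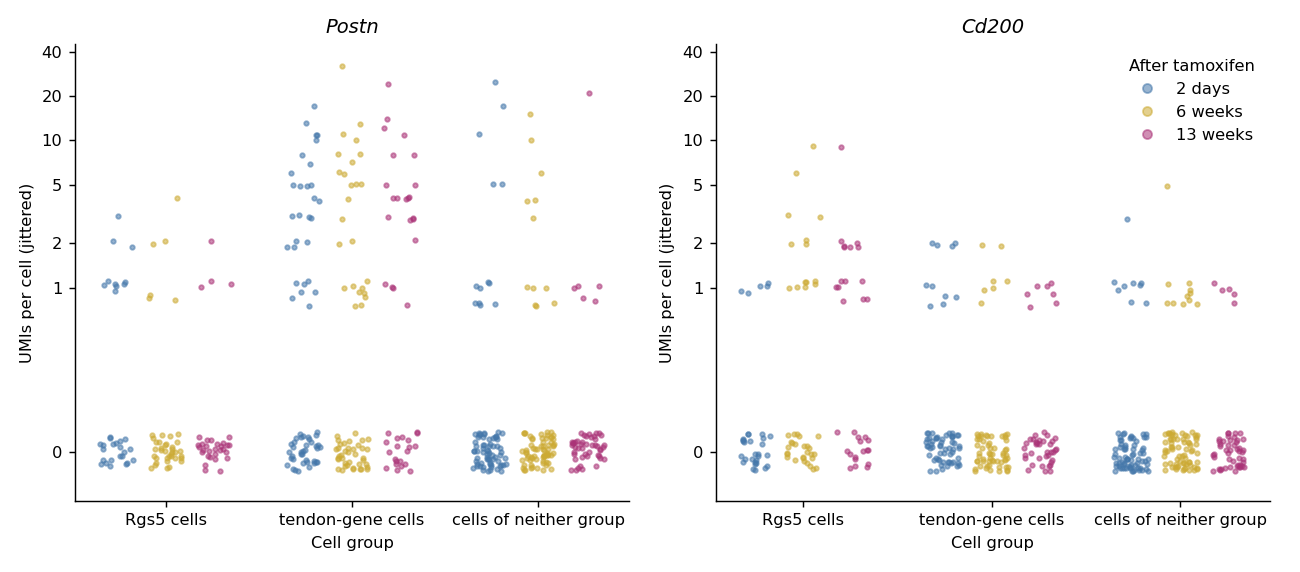
UMIs per cell of Postn (left) and Cd200 (right) on a jittered log-type y axis that includes 0, by cell group (x axis) and time point (color), with 1 point for each cell. Postn reaches 32 UMIs in a tendon-gene cell and at most 4 in Rgs5 cells, and Cd200 reaches 9 UMIs in Rgs5 cells and at most 2 in tendon-gene cells.

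In tendon-gene cells Postn was at 20.4, 25.1 and 32.0 UMIs per 10000 at 2 days, 6 weeks and 13 weeks (138, 136 and 125 UMIs), against 8.98, 7.28 and 5.53 in remaining cells and 6.48, 3.19 and 1.83 in Rgs5 cells. Every tendon-gene value lay above every remaining and Rgs5 value, and the Rgs5 and remaining values overlapped. UMI counts were summed per time point and group, and the 9 sums were tested with edgeR's quasi-likelihood test with time point as a block and Benjamini-Hochberg adjustment over 812 genes. Postn was higher in tendon-gene than in remaining cells by 2.16 on the log2 scale (SE 0.33, adjusted p = 0.000419). This held in all 24 alternatives tried, with differences of 1.64 to 2.87. Of the 4 markers tested it was the only call. In this comparison 13.3% of the genes tested were higher, 6.28% lower and 19.6% different in either direction, so a count of 1 says nothing about the markers as a set.

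By share of cells the tendon-gene cells were again highest, and the remaining and Rgs5 cells changed places. Postn was seen in 76 of 174 tendon-gene cells (43.7%), 31 of 211 remaining cells (14.7%) and 20 of 105 Rgs5 cells (19.0%), with median depths of 788, 734 and 571 UMIs. With each cell thinned to 300 UMIs the shares were 30.2%, 8.91% and 9.09%. In Rgs5 cells the log2 difference from remaining cells was -0.85 (SE 0.40, adjusted p = 0.205 by edgeR), and it passed the threshold in 4 of 24 alternatives, among them the fit with no filter on low counts (-1.40, adjusted p = 0.0107). In that fit the median difference of the same 812 genes was itself -0.57.

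Within the groups, the pooled Postn level differed between 2 days and 13 weeks in opposite directions. The level at 13 weeks over 2 days was 1.57 (interval 1.22 to 2.02) in tendon-gene cells, 0.62 (0.38 to 0.98) in remaining cells and 0.28 (0.08 to 0.83) in Rgs5 cells. These intervals treat the UMIs of a cell as independent. The make-up of the remaining and Rgs5 cells also differed between the 2-day and 13-week pools. In remaining cells the skeletal muscle list was at pooled levels of 27.1 and 62.8, and the endothelial list at 0.63 and 10.4. Their fibroblast or progenitor list was at 261 and 180. In Rgs5 cells the endothelial list was at 22.2 and 48.2. Whether this bears on the Postn ratios was not tested. The share of cells with Postn at 2 days and 13 weeks was 43.3% and 51.2% in tendon-gene cells, 16.5% and 11.5% in remaining cells and 31.25% and 12.5% in Rgs5 cells. In each group the intervals of these shares overlap. The tendon-gene over remaining ratio of Postn was 2.27 in the 2-day pool (interval 1.69 to 3.07), 3.45 in the 6-week pool (2.46 to 4.90) and 5.79 in the 13-week pool (3.77 to 9.20). The 2-day and 13-week intervals of this ratio do not overlap. In the 13-week remaining cells, 21 of the 26 Postn UMIs were in 1 cell. Without the highest cell of each sum, the level at 13 weeks over 2 days was 1.46 in tendon-gene cells, 0.191 in remaining cells and 0.214 in Rgs5 cells, and the tendon-gene over remaining ratio of Postn was 3.10 in the 2-day pool and 23.7 in the 13-week pool.

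Grem1, a secreted antagonist of BMPs (chr2:113746164-113758646, minus strand), gave 3 UMIs in 3 cells, 1 at 2 days and 2 at 6 weeks, and all were tendon-gene cells. It was not seen in 105 Rgs5 cells (limit 2.86%), in 211 remaining cells (limit 1.42%) or in 133 cells at 13 weeks (limit 2.26%). The 1.72% share in tendon-gene cells is close to those limits, and no difference between groups was detectable.

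Ctsk, or cathepsin K, a collagen-degrading protease (chr3:95499256-95509362, plus strand), gave 105 UMIs in 79 cells (15.7%). It was detected in 17.1%, 18.5% and 9.77% of cells at 2 days, 6 weeks and 13 weeks, at 2.28, 3.32 and 1.19 UMIs per 10000. After thinning it was in 7 of 175, 17 of 182 and 4 of 126 cells, so the 6-week pool was highest and the 13-week pool lowest on each scale. The ratio to 2 days was 1.46 at 6 weeks (interval 0.94 to 2.27) and 0.52 at 13 weeks (0.26 to 0.98). The 6-week pool did not differ from the 2-day pool beyond counting error, and the 13-week pool was lower by a margin that barely exceeded it.

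Ctsk is best known from osteoclasts, so the cells were read for other osteoclast genes. Of 9 such genes, Acp5, Itgb3 and Calcr gave 4, 8 and 8 UMIs and Ocstamp was at 0 in every cell. For Mmp9, Oscar, Dcstamp, Atp6v0d2 and Tnfrsf11a no UMI is listed, so the list rests on the other 4. Calcr was also on the list of muscle satellite genes used here, and 6 of its 8 UMIs were in remaining cells. A UMI of this list therefore does not by itself mark an osteoclast. A UMI of this list was present in 4 of 79 cells with Ctsk (5.06%) and 14 of 424 cells without (3.30%). Cells with Ctsk were deeper, with a median of 1121 UMIs against 672.5. The 8 immune genes gave 27 UMIs in all, of which 2 were Ptprc, the pan-leukocyte antigen CD45.

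By group, Ctsk was at 3.10, 4.06 and 2.56 UMIs per 10000 in tendon-gene cells at 2 days, 6 weeks and 13 weeks, at 1.90, 3.64 and 0.64 in remaining cells and at 1.39, 1.16 and 0.37 in Rgs5 cells, the last from 3, 4 and 1 UMIs. The tendon-gene and remaining values overlapped. The log2 difference was 0.99 (SE 0.39, adjusted p = 0.0909 by edgeR) in tendon-gene cells and -0.98 (SE 0.56, adjusted p = 0.300) in Rgs5 cells. Ctsk passed the filter only through the tendon-gene sums, and with no filter its difference there was 0.74 (adjusted p = 1). Neither difference passed the threshold in any of 23 alternatives. Prrx1 gave 0.76 (SE 0.31, adjusted p = 0.101) in tendon-gene cells and -0.50 (SE 0.39, adjusted p = 0.444) in Rgs5 cells, and it too passed in none of 23.

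**Figure D3:**
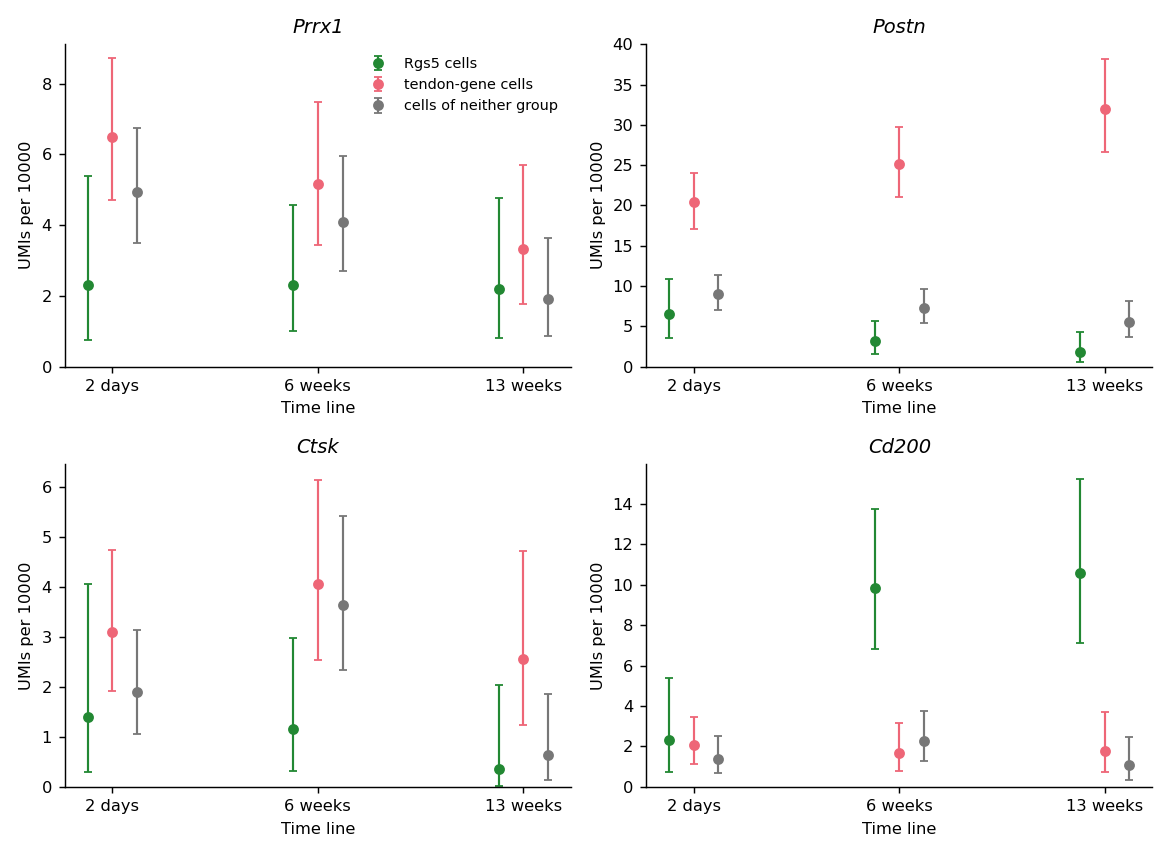
Pooled level of Prrx1, Ctsk, Postn and Cd200 (UMIs per 10000, y axis) in Rgs5, tendon-gene and remaining cells at 2 days, 6 weeks and 13 weeks, with exact Poisson intervals that cover counting error only. The Postn values of tendon-gene cells (20.4 to 32.0) lie above the other groups, and Cd200 reaches 9.85 and 10.6 in Rgs5 cells at 6 and 13 weeks but 2.31 at 2 days.

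Cd200 and Enpep encode surface proteins. Cd200, a membrane glycoprotein that signals to myeloid cells through its receptors, gave 130 UMIs in 84 cells (16.7%). It was detected in 13.3%, 16.9% and 21.1% of cells at 2 days, 6 weeks and 13 weeks, at 1.75, 3.70 and 3.56 UMIs per 10000. The thinned shares were 6.29%, 7.69% and 9.52%. The level was 2.11 times the 2-day level at 6 weeks (interval 1.34 to 3.40) and 2.03 times at 13 weeks (1.24 to 3.37). Both later pooled levels were thus above the 2-day level beyond counting error of UMIs. The intervals of the unthinned shares overlapped (8.68 to 19.1 at 2 days, 11.9 to 23.1 at 6 weeks, 14.5 to 29.0 at 13 weeks). At least 5 Cd200 UMIs were seen in 0, 3 and 1 cells at these times, with up to 9 in a cell. Ratios without these cells were not computed. On read counts the 13-week ratio was 3.69, with a 2-day level of 1.02 reads per 10000.

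In Rgs5 cells Cd200 gave 5, 34 and 29 UMIs at 2 days, 6 weeks and 13 weeks, or 2.31, 9.85 and 10.6 UMIs per 10000, and the share of these cells with Cd200 was 15.6%, 34.1% and 46.9%. Tendon-gene cells were at 2.07, 1.66 and 1.79 and remaining cells at 1.39, 2.28 and 1.06. The 6- and 13-week Rgs5 cells stood far above all other values, while the 2-day Rgs5 cells, at 2.31, were next to the 6-week remaining cells, at 2.28. Within Rgs5 cells the ratio to 2 days was 4.26 (interval 1.66 to 13.9) at 6 weeks and 4.58 (1.75 to 15.2) at 13 weeks.

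Cd200 passed the filter on low counts only through the Rgs5 sums. Such a filter favors genes that are higher in the group that carries them past it, so the fit with no filter is given first. In it, Cd200 was higher in Rgs5 than in remaining cells by 1.81 on the log2 scale (SE 0.44, adjusted p = 0.00490 by edgeR). This fit called 1.25% of 16099 genes, 0.366% higher and 0.888% lower. With the filter the difference was 2.31 (SE 0.46, adjusted p = 0.00418), in a comparison that called 13.7% of 812 genes, 7.64% higher and 6.03% lower. Of 6 fits with no filter, 3 called Cd200. The call was lost without the 6-week cells (1.85, adjusted p = 0.251) and, with the filter, without the 13-week cells (1.82, adjusted p = 0.0768) and on read counts (2.60, adjusted p = 0.157). With no filter it was also lost without the deepest 5% of cells (1.32, adjusted p = 0.187). In tendon-gene cells the difference was 0.55 (SE 0.50, adjusted p = 0.465).

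The Cd200 of Rgs5 cells lay mostly in those that also carried endothelial transcripts. The 58 Rgs5 cells with an endothelial UMI held 61 of the 68 Cd200 UMIs, in 27 cells (46.6%), at 11.0 UMIs per 10000 (interval 8.42 to 14.1). The other 47 held 7 UMIs in 7 cells (14.9%), at 2.49 (1.00 to 5.14), against 1.61 (1.097 to 2.29) in remaining cells. At 2 days, 6 weeks and 13 weeks the level was 4.67, 11.996 and 13.2 with an endothelial UMI and 0, 3.46 and 4.71 without, so 2 days was lowest on each side of the split. These cells differed in depth, with medians of 712 and 497 UMIs, and after thinning to 300 UMIs Cd200 was in 13 of 56 and 2 of 43 cells. The plot of levels across this split shows the same order at each time point.

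Without all cells that had an endothelial UMI, and with no filter on low counts, the Cd200 difference between Rgs5 and remaining cells was -0.07 on the log2 scale (SE 0.74, adjusted p = 1). The median difference of 807 commonly counted genes was -1.19 in that fit, so Cd200 lay above it, and the fit does not show that a Cd200 difference was absent. The endothelial list itself was at 22.2, 36.5 and 48.2 UMIs per 10000 in Rgs5 cells at 2 days, 6 weeks and 13 weeks, so it was lowest at 2 days, as Cd200 was. Cells with an endothelial UMI and no Rgs5 held 11 Cd200 UMIs, in 7 of 37 cells, at 2.95 per 10000. Cd200 was also in 11 of 51 cells with Pax7 or Cdh15 (21.6%), which mark muscle satellite cells, at 4.02 per 10000.

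**Figure D4:**
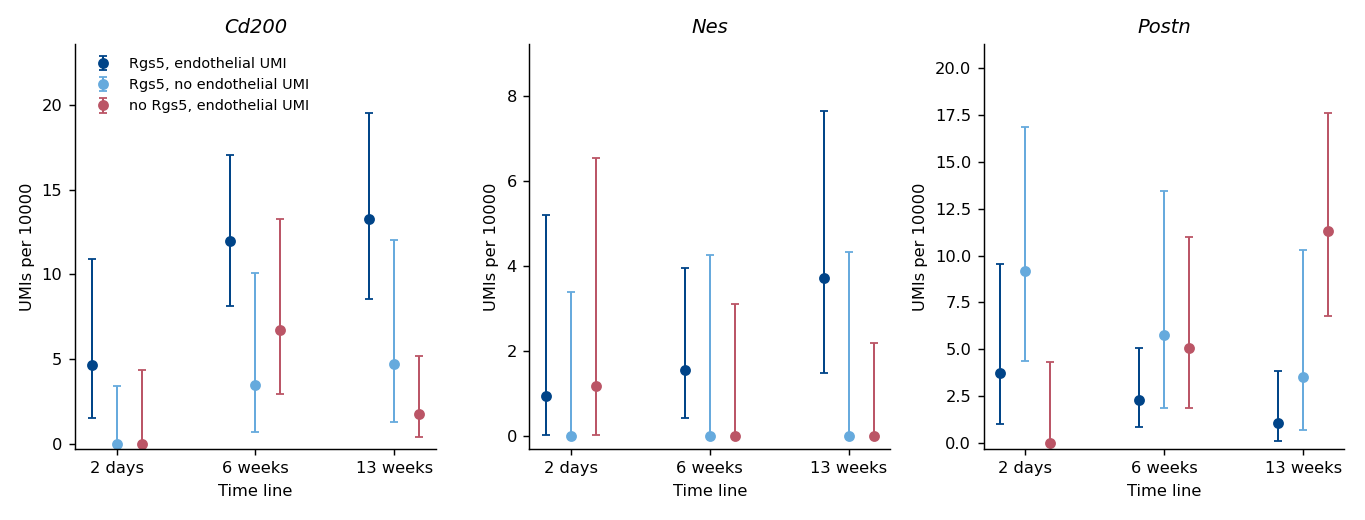
Pooled level of Cd200, Nes and Postn (UMIs per 10000, y axis) by time point in Rgs5 cells with and without an endothelial UMI and in cells with an endothelial UMI and no Rgs5, with exact Poisson intervals that cover counting error only. Cd200 reaches 13.2 in 13-week Rgs5 cells with an endothelial UMI and at most 4.71 in those without, where Nes is at 0 at each time point.

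Postn had the opposite order across this split, and Prrx1 was near equal. Postn was at 2.16 UMIs per 10000 (interval 1.12 to 3.78) in Rgs5 cells with an endothelial UMI and 6.41 (3.80 to 10.1) in those without, and these intervals do not overlap. At 2 days, 6 weeks and 13 weeks it was at 3.73, 2.32 and 1.06 with and 9.17, 5.76 and 3.53 without, so the order was the same at each time point, although the intervals at each overlap. Prrx1 was at 2.16 (1.12 to 3.78) and 2.49 (1.00 to 5.14). Rgs5 cells without endothelial transcripts thus had the lower Cd200 and the higher Postn.

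Enpep, a surface aminopeptidase that cleaves angiotensin II (chr3:129269175-129332720, minus strand), gave 8 UMIs in 8 cells, of which 2 were 2-day, 4 were 6-week and 2 were 13-week cells. Rgs5 cells held 5 of these, tendon-gene cells 2 and remaining cells 1. The Rgs5 level was 0.60 UMIs per 10000 and the remaining level 0.052, with a ratio whose interval ran from 1.29 to 544. With no filter the log2 difference was 2.67 (SE 1.55, adjusted p = 1 by edgeR), so it was not called, and 3 of the 8 cells had an endothelial UMI.

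Nes, or nestin, an intermediate filament protein of neural and vessel-associated progenitors (chr3:87971078-87980451, plus strand), gave 17 UMIs in 15 cells, with 3, 7 and 7 UMIs at 2 days, 6 weeks and 13 weeks. Rgs5 cells held 12 of them, 1, 4 and 7 at the successive times, remaining cells 4 and tendon-gene cells 1. The Rgs5 level was 6.90 times the remaining level (interval 2.09 to 29.3). All 12 Rgs5 UMIs were in 10 of the 58 cells with an endothelial UMI, and 0 of the 47 other Rgs5 cells allows a share of up to 6.38%. Over all groups, 11 of the 15 cells with Nes had an endothelial UMI (73.3%), against 86 of 488 without Nes (17.6%). Gli1, Grem1, Nes, Enpep and Sox9 did not pass the filter on low counts. In the fit with no filter, Nes differed between Rgs5 and remaining cells by 2.16 on the log2 scale (SE 0.88, adjusted p = 0.415 by edgeR) and none of these 5 genes was called in either comparison, with unadjusted p = 0.0142 for Nes.

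Free RNA can put a UMI into a cell that does not express the gene. In 19 cells with at least 5 UMIs of skeletal muscle genes (median depth 423 UMIs), which should lack most of these markers, Ctsk and Nes were each seen in 2 cells and Prrx1 and Postn in 1 each. Cd200, Gli1, Grem1, Enpep and Sox9 were seen in none, which allows a share of up to 15.8%. These cells were too few and too shallow to set a firm background for the 5 sparse markers, and whether their UMIs were free RNA was not tested.

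Few cells carried several of the 9 markers together. No marker was seen in 200 of 503 cells, 1 in 192, 2 in 83, 3 in 23 and 4 in 5. The cells without a marker were shallower, with a median of 557.5 UMIs against 1121 in cells with 2 or more. At 300 UMIs per cell, 295 of 483 cells (61.1%) had none, 159 had 1, 28 had 2 and 1 had 3.

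By group, 2 or more markers were seen in 33.3% of tendon-gene cells and 14.7% of remaining cells, and in 10.1% and 2.48% after thinning, while the 105 Rgs5 cells included 16 with 2 and 5 with 3. Ctsk and Postn are both proposed markers of periosteal stem cells. Postn was in 37 of 79 cells with Ctsk (46.8%) and 93 of 424 without (21.9%), and after thinning in 8 of 28 (28.6%) and 73 of 455 (16.0%). Within tendon-gene cells the thinned shares were 5 of 15 (33.3%) and 46 of 154 (29.9%). Prrx1 was in 23.8% of cells with Postn and 23.6% of cells without. Within tendon-gene cells it was in 22.4% with and 34.7% without Postn (7.84% and 20.3% after thinning), and within Rgs5 cells in 5 of 20 and 10 of 85.

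Genes of the same pathways were read from lists. Of 11 genes that encode periostin's partners in matrix, 10 were tested, and 6 were higher and none lower in tendon-gene cells, with a median log2 difference of 1.24 against 0.04 over all genes tested, of which 13.3% were higher and 6.28% lower. They were Fn1, or fibronectin (1.52), Sparc (1.52), Col1a1 (1.61), Itgb1 (0.96), the matrix glycoprotein Tnc (2.58) and the collagen cross-linking enzyme Lox (1.99). Tnc and Lox passed the filter only through the tendon-gene sums, so they are no support in this count or in this median. In the fit with no filter, Sparc and Col1a1 were at 1.22 and 1.31. Ccdc80, Tgfbi, Loxl1 and Col5a1 were at 0.29, 0.27, -0.08 and -0.26 there, and the median of the same 812 genes was -0.23. With no filter, where 1.29% of genes were called (0.59% higher, 0.696% lower), Tnc was at 2.33 (adjusted p = 0.000160 by edgeR), Lox at 1.73 (0.00941) and Fn1 at 1.22 (0.000572), and Itgb1, at 0.67 (adjusted p = 1), was not called. In Rgs5 cells, Fn1 fell by 2.06 (adjusted p = 0.000984), and by 2.59 with no filter (adjusted p = 4.95e-12). Tgfbi, a close relative of Postn, and Loxl1 gave 1 UMI each in Rgs5 cells and passed the filter only through the other groups. With no filter they were at -4.30 (adjusted p = 0.000586) and -4.36 (0.000329), values that depend on the prior count. Itgb1, an integrin subunit, was at 1.37 (adjusted p = 0.00628), and at 0.85 with no filter (adjusted p = 0.605).

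Of 20 other proposed skeletal progenitor markers, 6 were tested. In Rgs5 cells the pericyte receptor Pdgfrb was higher by 2.86 (SE 0.51, adjusted p = 0.00231 by edgeR) and the chemokine Cxcl12 by 2.13 (SE 0.33, adjusted p = 0.000984). In tendon-gene cells Ctgf, which encodes a matricellular growth factor and passed the filter only through the tendon-gene sums, was at 2.85 with no filter (adjusted p = 4.68e-09) and 3.13 with it, and Ly6a, the surface protein Sca1, was lower (-1.44, adjusted p = 0.00173). Acta2, the gene behind the label, gave 0.67 in Rgs5 cells (adjusted p = 0.279) and -0.99 in tendon-gene cells (0.0981).

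The pathways around the sparse markers were thinly covered. Of 13 hedgehog genes 10 had a UMI and only the coreceptor Gas1 was tested, at -0.38 in Rgs5 cells (adjusted p = 0.681) and 0.92 in tendon-gene cells (0.117). The target Ptch1 gave 1 UMI against 131 for Gas1, 43 for Boc and 30 for Cdon. Of 22 BMP ligands, antagonists and targets, 2 were tested, Id3 and Fstl1, and Fstl1 was lower in Rgs5 cells (-2.01, adjusted p = 0.00297). Of 11 angiotensin peptidases and receptors, only Ece1 was tested, and it was higher in Rgs5 cells by 1.53 (adjusted p = 0.0104), a call absent with no filter (1.03, adjusted p = 0.363), with 16 UMIs for Anpep and 15 for Ace. Of 6 filament genes, Vim and Lmna were tested, at -0.51 and -0.72 in Rgs5 cells (adjusted p = 0.205 and 0.165).

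Around Ctsk, 6 of 12 lysosomal cathepsins and partners were tested, and 1 of them, Ctsd, was called in tendon-gene cells, where 19.6% of all genes tested were called. Ctsd also passed the filter only through the tendon-gene sums, and it was at 1.62 with no filter (adjusted p = 0.00541). The most abundant were Ctsl, Ctsb and Lamp1, with 400, 187 and 180 UMIs. Around Cd200, of 4 receptor genes Cd200r1 and Cd200r3 gave 1 UMI each. None of 13 Prrx and limb mesenchyme factors was tested. Meox2 gave the most UMIs of that list, 66, followed by Shox2 with 24.

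For the 4 markers with at least 50 UMIs, 593 genes were ranked by the correlation of log2(UMIs per 10000 + 1) over the 9 sums, which share libraries and depth, so that r is a description. Prrx1 was most like P4hb (r = 0.94), Sar1a (0.91) and Serpinh1 (0.91), and Ctsk was most like Ctsl (0.96), Ppib (0.96) and Serpinh1 (0.94). Postn was most like Lpar1 (0.99), Cilp (0.98) and Mgp (0.96), all highest in tendon-gene cells. Cd200 was most like Aplp2 (0.96), B2m (0.90) and Ece1 (0.89). P4hb, Serpinh1 and Ppib encode proteins of collagen folding, and B2m a subunit of MHC class I.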

How the data were processed

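Cells were pooled from mice per time point and sorted into wells for a plate-based form of Drop-seq. The authors demultiplexed reads with bcl2fastq (2.18.0.12), aligned them with STAR (2.5.4a) to GRCm38 and counted them with Drop-seq tools and Picard (2.9.3), versions as in the submitters' processing notes. For each plate they deposited raw counts of UMIs and of reads, with genes in rows and wells in columns, without normalization or filtering. UMI counts were used throughout. The 168 wells assigned to no time point were not used. Wells with at least 200 genes were kept (246 to 3928 UMIs per cell). No doublet caller was run and no cell was removed as a doublet.

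Levels are pooled UMIs per 10000 with exact Poisson intervals, shares have Clopper-Pearson intervals (95%), ratios have conditional exact intervals, and a count of 0 allows 3 counts of the total. Thinned shares draw 300 UMIs per cell, and 20 shallower cells were left out. Sums per time point and group were tested with edgeR (4.0.16, TMM, filterByExpr by group, glmQLFTest), with time point as a block. The adjusted p threshold was 0.05. The p-value measures a group difference against how much it varied over the 3 pools. These pools also differ in chase, strain, age, doxycycline or plate, so they are not replicates of 1 condition. The block is the pool, since sums of a time point come from the same mice. The script was tested on simulated data. Alternatives were DESeq2 (1.42.0), other size factors, filters, thresholds, read counts, thinning, and leaving out a time point or kinds of cells. Python 3.11.15, scipy 1.17.1 and R 4.3.3 were used.

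The 9 markers and the gene lists were chosen with earlier results of these data known. Genes named besides the 9 are list genes past the threshold in either contrast, the 3 most abundant of each pathway list, and the 3 genes most like each marker with at least 50 UMIs, among genes with at least 100 UMIs. Acta2 and the osteoclast, hedgehog and receptor genes named for low counts were added after their values were seen. Promoter windows are from RefSeq.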

Additional observations from a re-analysis of the deposited data

Results flagged for a closer look

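Postn at 13 weeks over 2 days differed between cell groups. The ratio of pooled levels was 1.57 in tendon-gene cells, 0.282 in Rgs5 cells and 0.617 in remaining cells, so it lay above 1 in the first group and below 1 in the others, with intervals that do not overlap. The shares of cells with Postn had overlapping intervals at 2 days and 13 weeks in each group. The difference in direction was not tested, because each time point was 1 pool of mice. In Rgs5 cells it rests on 14 UMIs at 2 days and 5 at 13 weeks, and in remaining cells 21 of the 26 UMIs at 13 weeks were in 1 cell. Without the highest cell of each sum the ratios were 1.46, 0.214 and 0.191. The make-up of the remaining and Rgs5 cells also differed between these pools, and whether this bears on the ratios was not tested.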

How the results depend on the processing

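Of 176 alternative values of the log2 differences, 165 kept their direction and side of the threshold, 4 lost and 4 gained a call, and 3 reversed. Settings in which a marker fell under the filter gave no value and are not among these. Cd200 in Rgs5 cells had a value in 18 alternatives and was called in 13. Many of the 165 were differences never called, such as those of Prrx1 and Ctsk. The reversed values were Cd200 in Rgs5 cells without endothelial cells and with no filter (-0.0706, in a fit whose median over 807 commonly counted genes was -1.19) and Cd200 in tendon-gene cells (-0.72 with each split over all cells, -0.000807 with 2 tendon UMIs). With the filter, which Cd200 passed only through the Rgs5 sums, 1 marker was called in Rgs5 cells. The count was 0 with read counts, with 300 genes per cell, with thinning, without endothelial-UMI cells, without muscle-marked cells and without the deepest 5% of cells. In these settings other than read counts (2.60, adjusted p = 0.157) Cd200 fell under the filter, and without the deepest 5% and with no filter it was at 1.32 (adjusted p = 0.187). It was 2, Postn included, with no filter, with each split over all cells, and with no filter without muscle-marked cells or at 300 genes. Leaving out a time point gave 0 to 1. With no replicate block, Postn had an adjusted p of 0.00128 in tendon-gene cells, so its call did not depend on the pairing by pool. Cd200 had 0.0112 in the filtered fit, and its fit with neither block nor filter was not run. The genes called in Rgs5 cells numbered 111, against 64 by DESeq2, 202 with no filter, 214 with each split, 68 without 13 weeks, 29 thinned, 25 on read counts and 21 without endothelial-UMI cells. In tendon-gene cells they numbered 159, against 98 by DESeq2, 59 thinned and 35 on read counts. Shares without thinning stand in the text (Prrx1 29.8%, 24.3% and 14.3%, Ctsk 17.1%, 18.5% and 9.77%, Postn 29.3% and 23.3%, Cd200 13.3%, 16.9% and 21.1%). Thinned to 200 UMIs, Prrx1 and Postn at 2 days were at 8.84% and 11.6%. Thinned to 500, Postn was at 27.7% and 25.6% at 2 days and 6 weeks and Cd200 at 18.8% at 13 weeks. On read counts per 10000, Prrx1 was at 6.44 and 5.37 at 2 days and 13 weeks (ratio 0.835), Ctsk at 1.40 and Cd200 at 1.02 at 2 days, Postn at 16.5 at 6 weeks, and the Cd200 ratio was 3.69. As a mean over cells, Postn was at 10.9, 10.1 and 10.7. At 2 days Postn was at 11.0 without the deepest cells and 15.1 without muscle-marked cells. Without the highest cell of each sum, an alternative chosen after seeing the data, the Postn ratios above became 0.191 for 13 weeks over 2 days in remaining cells and 3.10 and 23.7 for tendon-gene over remaining cells at 2 days and 13 weeks. The cause of these changes was not tested.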
